A study of Mus musculus with 2 samples.

Results

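Genes of the Notch pathway were followed through the cell classes of dystrophic mouse hind limb muscle by droplet single-cell RNA-seq. The set comprised 9 genes picked by symbol from the 24984 genes of the count matrices: the receptors Notch1, Notch2 and Notch3, the ligands Dll1, Dll4 and Jag1, and the target genes Hes1, Hey1 and Heyl. Each had unique molecular identifier (UMI) counts in both libraries. Both groups were mdx mice, which lack dystrophin, and both carried Pax7 CreERT2/R26YFP, a tamoxifen-inducible Cre driven by the muscle stem cell (MuSC) gene Pax7 together with a YFP reporter. Ctrl mice were Yy1+/+ and dKO mice Yy1 f/f, so that the deletion of the transcription factor gene Yy1 was directed to MuSCs and their progeny. Tamoxifen was given on 5 days at 100 mg/kg from an age of 1.5 months, and muscle was collected 1 month later. Live mononuclear cells of 3 mice were pooled into 1 library in each group. Differences between mice therefore cannot be seen, no test between groups was possible, and the 95% intervals given here cover counting error only.

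Notch is a receptor family through which touching cells signal. A ligand of the Delta or Jagged type on one cell binds the receptor on its neighbour, the receptor is cleaved, and its intracellular part enters the nucleus, where it joins the DNA-binding protein RBPJ and switches on repressor genes of the Hes and Hey families. In muscle the pathway is known for holding MuSCs in quiescence, for arterial identity in endothelial cells (EC), and, through Notch3, for the mural cells of vessel walls.

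The Ctrl library held 4010 cells after filtering and the dKO library 3079, with medians of 7880 and 7806 UMIs per cell. Only 6 of the retained cell barcodes were shared between the libraries. The cells fell into 22 clusters, which gave 13 named classes and 1 small unnamed group, and the 9 genes and 47 further genes of the pathway took no part in the clustering. Classes carry the suffix "-like" because they were named from marker genes. Levels are given as CPM, the UMIs of a gene in a class per 1000000 UMIs of that class. UMIs count transcript ends without regard to length, so a gene is compared between classes and libraries and never with another gene. The share of cells differed between libraries for several of the classes that matter here: from Ctrl to dKO, EC-like cells went from 11.6% to 5.81%, MuSC-like cells from 2.92% to 0.974%, mural-like cells from 2.67% to 1.23%, and fibro-adipogenic progenitor (FAP)-like cells from 27.3% to 37.3%. Monocytes and macrophages (MO/MP-like) were 35.4% and 36.7%.

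Yy1 itself was measured first, as the check of the labels. In MuSC-like cells it had 369 UMIs in Ctrl, or 160 CPM, and 3 UMIs in dKO, all in 1 cell, or 4.85 CPM. The ratio of dKO to Ctrl was 0.0304 (0.00623–0.0894). In FAP-like, MO/MP-like, EC-like and mural-like cells the ratio lay between 0.863 and 1.10. Among these 5 classes the low value was that of the class in which the Cre is active.

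All 9 genes had a position in the mouse annotation of build GRCm38. Notch1 lies at chr2:26457903-26516663 on the minus strand, Dll4 at chr2:119325784-119335962 on the plus strand and Jag1 at chr2:137081456-137116644 on the minus strand. Notch2 (chr3:98013527-98150361, plus) and Hey1 (chr3:8663359-8667256, minus) share chromosome 3, and Notch3 (chr17:32120820-32166852, minus) and Dll1 (chr17:15367354-15376872, minus) share chromosome 17. Hes1 (chr16:30064384-30067796, plus) and Heyl (chr4:123233556-123249875, plus) complete the set. A promoter window of 250 bases before the start site was at hand in RefSeq (GRCm38.p6) for 6 of the 9 genes, the receptors and ligands, and the targets Hes1, Hey1 and Heyl had no window. The core RBPJ motif TGGGAA, searched on both strands, was in 0 of their 7 windows, in 14 of 51 windows of the other pathway genes and in 21.6% of 32851 mouse windows, which says only that these letters are not in those 250 bases. The windows of Dll4, the ligand with the largest difference between libraries, and of Notch3, the receptor most restricted to 1 class, are shown 5′ to 3′, with no motif to mark in capitals.
Dll4 (chr2:119325534-119325783, plus): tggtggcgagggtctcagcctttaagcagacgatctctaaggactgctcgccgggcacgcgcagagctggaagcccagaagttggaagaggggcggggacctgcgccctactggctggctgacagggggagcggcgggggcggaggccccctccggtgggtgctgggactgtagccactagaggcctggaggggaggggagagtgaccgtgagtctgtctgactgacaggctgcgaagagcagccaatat
Notch3 (chr17:32166891-32167140, minus): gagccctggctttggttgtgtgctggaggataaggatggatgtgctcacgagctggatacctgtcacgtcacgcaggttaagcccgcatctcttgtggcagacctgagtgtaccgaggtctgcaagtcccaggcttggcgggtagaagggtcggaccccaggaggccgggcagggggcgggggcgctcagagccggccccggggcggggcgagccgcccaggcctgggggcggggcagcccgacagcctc

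The 3 receptors had different homes. Notch1 was highest in EC-like cells, at 284 CPM (264–305) in Ctrl and 346 CPM (309–388) in dKO. Lymphatic EC-like cells followed at 218 and 313 CPM and mural-like cells at 170 and 216 CPM, and the intervals of neighbours in this order overlapped. Of the Notch1 UMIs of Ctrl mural-like cells, 64.3% lay in a sub-cluster of 26 cells led by EC genes. Without it mural-like cells were at 98.4 CPM (73.1–130) in Ctrl, apart from lymphatic EC-like cells (138–327). All other named classes lay at 8.29 to 64.5 CPM in Ctrl, and the intervals of MuSC-like, T cell-like and neutrophil-like cells overlapped that reduced mural-like level. Notch3 was the receptor of mural-like cells, which contributed 58.6% of the Notch3 UMIs of Ctrl and 50.4% of those of dKO from 2.67% and 1.23% of cells. Its level there was 659 CPM (605–717) in Ctrl and 791 CPM (680–914) in dKO, and the next class in order, MuSC-like, reached 57.1 and 43.6 CPM. Notch2 was spread most evenly: neutrophil-like cells led with 129 CPM (94.3–172) in Ctrl and 119 CPM (59.3–213) in dKO, MO/MP-like cells held the most UMIs, 41.7% and 41.9% of all, and EC-like cells were lowest at 6.03 CPM (3.45–9.79) and 9.18 CPM (3.96–18.1). EC-like cells thus led in Notch1 and came last in Notch2.

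The ligands were divided in a similar way. Dll4, the ligand of sprouting and arterial endothelium, was nearly confined to EC-like cells, which supplied 82.6% of the Dll4 UMIs of Ctrl and 74.5% of those of dKO. MuSC-like cells had no Dll4 UMI in either library, so that the floor of 3 UMIs, 1.30 CPM in Ctrl and 4.85 CPM in dKO, is the level given to this count. A UMI of Dll4 was found in 33.8% of Ctrl EC-like cells (median 4661.5 UMIs) and in 0.182% of Ctrl FAP-like cells (median 11762 UMIs). The background of free RNA was not measured. Dll1 had 2 classes in Ctrl, EC-like at 43.3 CPM (35.8–52.0) and MuSC-like at 40.3 CPM (32.5–49.3), whose intervals overlapped. Elsewhere Dll1 had at most 9 UMIs in a class and library. Jag1 was the broad ligand. Mural-like cells led with 235 CPM (203–270) in Ctrl and 168 CPM (120–230) in dKO, ahead of EC-like cells at 84.8 and 132 CPM, with intervals that were apart in Ctrl and overlapped in dKO. MO/MP-like cells with 45.4 and 48.0 CPM held the most UMIs in Ctrl.

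Among the targets, Hes1, a repressor that is also an early-response gene of other pathways, was found in every class of Ctrl. Lymphatic EC-like, mural-like and EC-like cells led in Ctrl with 209, 192 and 181 CPM and overlapping intervals, followed by tenocyte-like cells at 116 CPM (99.7–134). Hey1, a vascular target, had 75.9, 58.8 and 58.4 CPM in lymphatic EC-like, EC-like and mural-like cells of Ctrl, again overlapping, and 17.7 CPM (12.7–24.1) in MuSC-like cells. The same EC-gene sub-cluster held 70.8% of the Hey1 UMIs of Ctrl mural-like cells, which without it were at 27.6 CPM (15.1–46.2), apart from EC-like cells (49.9–68.8). Heyl, known as a target of Notch3 in mural cells and expressed in MuSCs, was ordered in Ctrl as mural-like (144 CPM, 119–172), MuSC-like (62.3 CPM, 52.6–73.4) and tenocyte-like (29.8 CPM, 21.9–39.6), with no overlap among these, then cycling FAP-like and FAP-like cells at 14.3 and 13.1 CPM. EC-like cells, rich in Notch1 and Hey1, had 3 UMIs of Heyl in Ctrl and 1 in dKO.

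The genes whose pattern over the 13 classes in both libraries was most like each member were sought among 9377 genes, as a description over 26 points that share their libraries. For Notch3 they were Pde5a, Acta2 and Rcan2 (Pearson r of log2 values 0.96, 0.95 and 0.94), of which Acta2 is smooth muscle actin. For Heyl they included Notch3 itself and Arhgef17 (0.93 and 0.93). Dll4 was nearest to the endothelial genes Podxl and Emcn and to Clic5 (0.95, 0.95 and 0.94), Notch1 to the endothelial genes Cldn5 and Rasip1 and to Pitpnc1 (0.88, 0.88 and 0.87), and Hey1 to Cavin2, Nr2f2 and Cd151 (0.96, 0.94 and 0.94). Jag1 (Map4k3, Bnip2 and Kif1c, 0.86 each) and Hes1 (Hipk3, Ripor1 and the Notch coactivator Maml2, 0.88 each) followed less class-bound genes. Dll1 (Palmd, Cdh13 and Unc45b, 0.79, 0.77 and 0.76) and Notch2 (Tbc1d23, Arid3a and Chp1, 0.69, 0.68 and 0.68) had no close companion.

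**Figure D1:**
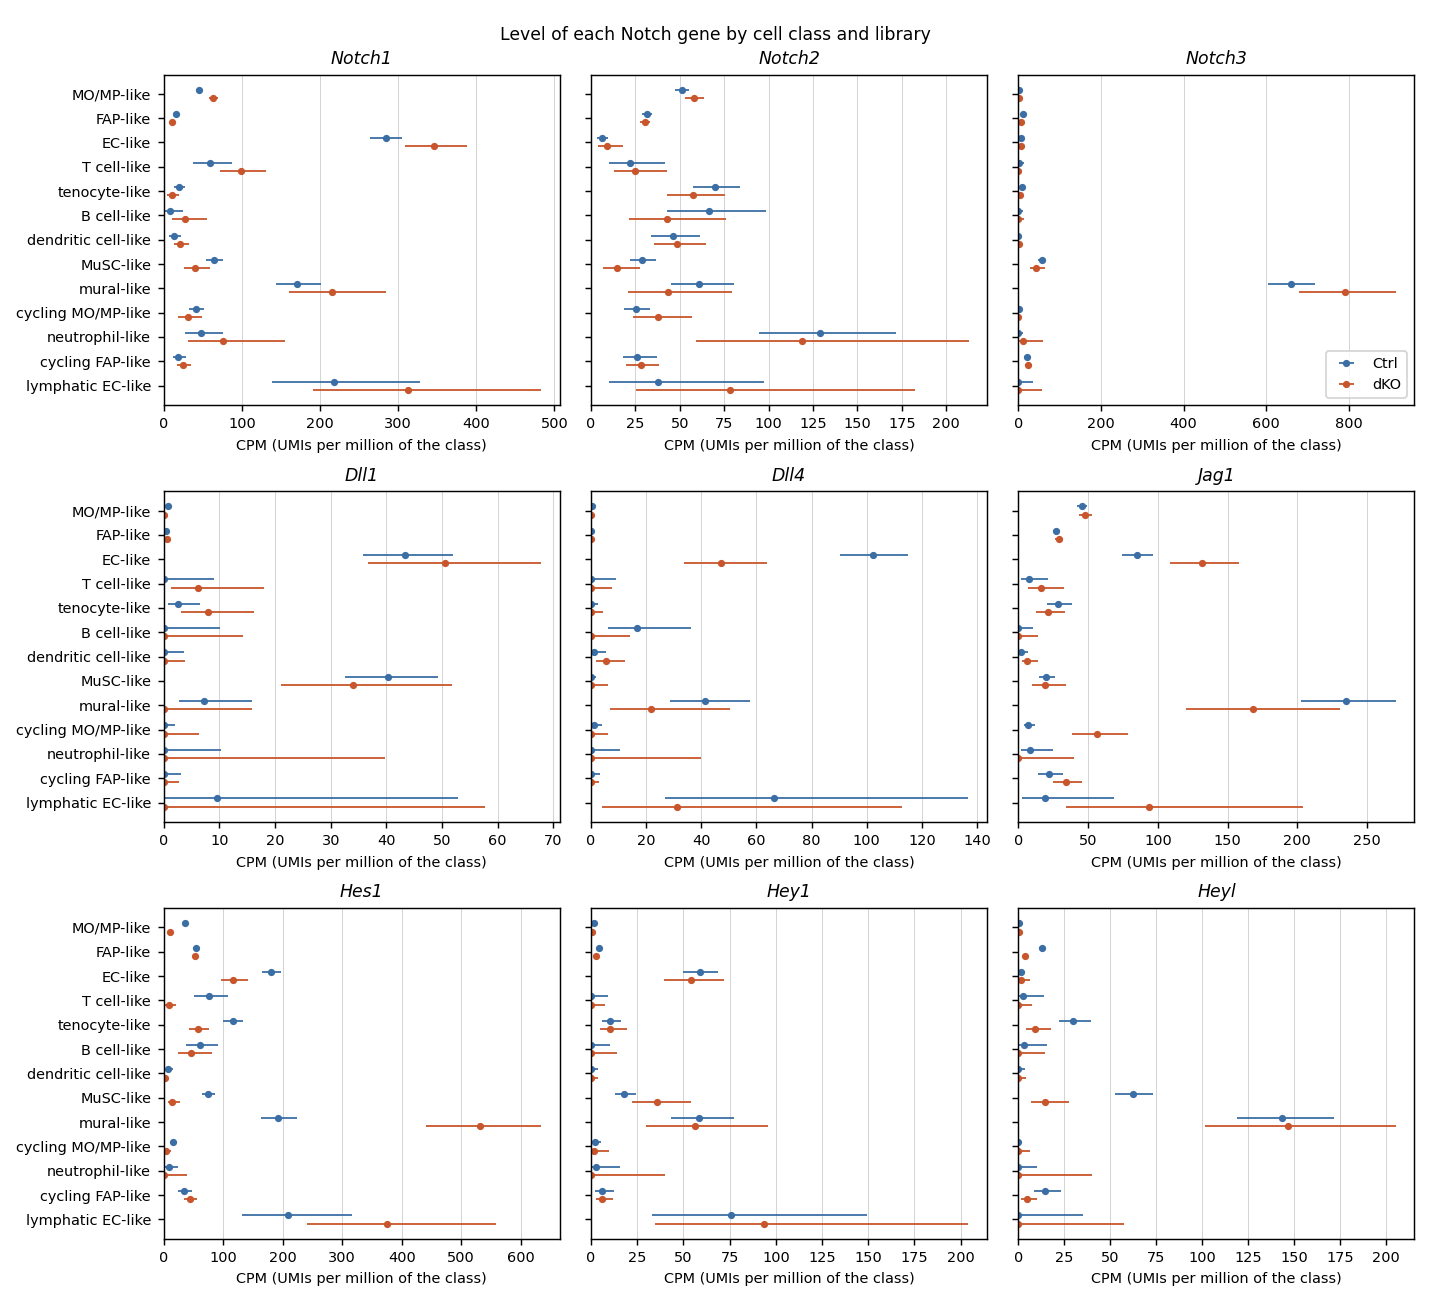
Level of each of the 9 genes in the 13 named classes, in CPM on a linear axis that differs between panels. Points are the Ctrl and dKO libraries and bars the exact 95% Poisson interval of the count; Notch3 stands far out in mural-like cells (659 and 791 CPM) and Dll4 in EC-like cells (102 and 47.0 CPM).

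Which of these levels differed between the Ctrl and dKO libraries was asked within each class. A gene is called past the fold when its ratio of dKO to Ctrl was at least 1.5 in either direction with at least 50 UMIs over both libraries. Whether doublets had been removed before deposit is not known, so calls that were lost without the removal applied here are named beside their values.

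In EC-like cells (464 Ctrl and 179 dKO cells), the 2 ligands Dll4 and Jag1 differed in opposite directions. Dll4 had 271 UMIs in Ctrl, 102 CPM (90.3–115), and 41 in dKO, 47.0 CPM (33.8–63.8), a ratio of 0.461 (0.323–0.641). The UMIs came from 157 cells in Ctrl and 32 cells in dKO, with at most 8 and 2 in a cell. Jag1 was at 84.8 CPM (74.1–96.6) in Ctrl and 132 CPM (109–158) in dKO, a ratio of 1.56 (1.23–1.96). Hes1 was lower in dKO, at 117 against 181 CPM, with a ratio of 0.648 (0.518–0.804). Notch1 (1.22, 1.06–1.40), Dll1 (1.16, 0.803–1.66) and Hey1 (0.917, 0.647–1.28) stayed within the fold. Hence 3 of the 6 genes with enough UMIs were past the fold, 1 higher and 2 lower, where 16.9% of all 6762 genes tested in EC-like cells were. Dll4 alone stayed past it when each cell counted alike and when every cell was thinned to 2000 UMIs. Jag1 was at a ratio of 1.45 (1.18–1.78) without doublet removal, which took 20.1% of dKO and 10.7% of Ctrl EC-like cells, and was then within the fold. The median log2 ratio of the 6 was 0.05, beside -0.05 over all genes.

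EC-like cells comprised arterial (61 Ctrl and 32 dKO cells), capillary (299 and 98) and venous (104 and 49) states, and the ligands followed the state. Dll4 was highest in arterial cells, with 291 CPM in Ctrl and 102 CPM in dKO, intermediate in capillary cells, with 114 and 62.3 CPM, and nearly absent from venous cells, with 7 UMIs and 1 UMI. It was lower in dKO within arterial cells, at a ratio of 0.351 (0.199–0.589), and within capillary cells, at 0.546 (0.334–0.852). Jag1 was an arterial ligand as well, but at the same level in both libraries there, 399 and 392 CPM (ratio 0.984, 0.719–1.34). In capillary and venous cells Jag1 was at 46.9 and 45.7 CPM in Ctrl and at 65.1 and 67.2 CPM in dKO, ratios of 1.39 (0.829–2.24) and 1.47 (0.831–2.55). Arterial cells were 13.1% of the EC-like cells in Ctrl and 17.9% in dKO. They held 288362 of the 2653110 UMIs of the class in Ctrl and 175907 of 871610 in dKO. The part of these shares in the Jag1 difference of the class was not tested. Notch1 had the same order, 576, 287 and 171 CPM in arterial, capillary and venous cells of Ctrl, and 671, 317 and 210 CPM in dKO. Hes1 had another order. It was highest in capillary cells, at 256 CPM in Ctrl and 198 CPM in dKO (ratio 0.774, 0.591–0.999), followed by arterial cells at 104 and 119 CPM (1.15, 0.624–2.07) and venous cells at 57.1 and 32.1 CPM (0.562, 0.262–1.10), from 45 and 11 UMIs. Capillary cells held 84.3% of the Hes1 UMIs of Ctrl EC-like cells and 68.6% of those of dKO. They were 64.4% of the EC-like cells in Ctrl and 54.7% in dKO, and the part of this share in the Hes1 difference of the class was not tested.

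Of the 47 other pathway genes, 29 had enough UMIs in EC-like cells, and 1, the ubiquitin ligase gene Itch, was past the fold (0.641, 0.375–1.05), beside 16.9% of all 6762 genes. The endothelial receptor gene Notch4 (69.7 and 65.4 CPM), the ligand gene Jag2 (46.0 and 65.4 CPM) and the feedback regulator gene Nrarp (58.0 and 52.8 CPM) were not. The median log2 ratio of the list was 0.04. A list of 13 stress and dissociation genes summed to 25547 CPM in Ctrl and 23683 CPM in dKO EC-like cells. Within the list Nr4a1 was past the fold, lower in dKO (0.643, 0.538–0.764), and Fosb past it, higher in dKO (1.79, 1.58–2.03). The 16 mural markers summed to 1041 and 670 CPM, and for both lists their part in the Hes1 and Dll4 differences was not tested.

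In mural-like cells (107 Ctrl and 38 dKO cells), Notch3 and Heyl, the members most bound to this class, were within the fold, and Hes1 was higher in dKO. Notch3 had a ratio of 1.2 (1.01–1.42), Heyl of 1.02 (0.677–1.51) and Jag1 of 0.717 (0.495–1.02). Hes1 was at 192 CPM (163–225) in Ctrl and 531 CPM (442–634) in dKO, a ratio of 2.76 (2.17–3.52), from 158 UMIs in 61 cells and 123 UMIs in 26 cells. It was the 1 of 7 genes past the fold, where 24.2% of 3485 genes were past it in either direction and 8.55% with the higher level in dKO. Hes1 was higher in dKO, past the fold, in each alternative run. The count past the fold was 3 with each cell alike, 3 without the cell richest in each gene and 5 after thinning to 2000 UMIs, where Heyl was at a log2 ratio of -0.73 in place of 0.03. Without the removal of likely doublets, which took 51 of 161 Ctrl and 23 of 61 dKO mural-like cells, the log2 ratio of Hes1 was 0.77 in place of 1.47.

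The Hes1 ratio differed among the states of mural-like cells. In the smooth muscle state (54 Ctrl and 24 dKO cells) Hes1 was at 158 CPM in Ctrl and 636 CPM in dKO, a ratio of 4.03 (2.94–5.56), with UMIs in 31 and 17 cells and at most 20 in a cell. In the pericyte state (27 and 10 cells) it was at 276 and 231 CPM. Stress genes summed to 18448 and 18878 CPM in the smooth muscle state, a list of genes that cell isolation is known to raise. In all mural-like cells the list summed to 24256 CPM in Ctrl and 19884 CPM in dKO. Fosb was past the fold there, higher in dKO (1.69, 1.39–2.04), and Jun past it, lower in dKO (0.520, 0.463–0.583). The part of these genes in the Hes1 difference was not tested. Notch3 was high in both states, at 789 and 752 CPM in the smooth muscle and 851 and 1199 CPM in the pericyte state. Heyl was higher in pericytes, with 324 against 132 CPM in Ctrl and 415 against 104 CPM in dKO, and the intervals of the pooled levels, 342 CPM (240–474) and 124 CPM (97.3–156), did not overlap. A further group of 26 Ctrl and 4 dKO cells was led by EC genes and had Dll4 at 108 CPM in both libraries. It held all 34 Ctrl and all 5 dKO UMIs of Dll4 counted in mural-like cells, and EC markers summed there to 17242 and 15794 CPM, against 933 and 941 CPM in the smooth muscle state. Left without these cells, mural-like cells had a Notch3 log2 ratio of 0.0090 and a Hes1 log2 ratio of 1.73. Notch1 (98.4 and 157 CPM, 1.59, 0.970–2.56) was then past the fold upward and Notch2 (88.6 and 48.6 CPM, 0.548, 0.236–1.14) downward, both with intervals that included 1.

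Of the other pathway genes, 12 of 47 had enough UMIs in mural-like cells. Past the fold were 1 upward and 3 downward, where 24.2% of all 3485 genes were past it in either direction. Those past the fold included Maml3, a coactivator, upward, and Spen, a corepressor, and Adam10, which cleaves the receptor, downward, each with an interval that included 1. Nrarp, which Notch switches on, was at 339 CPM in Ctrl and 475 CPM in dKO (1.40, 1.11–1.75), and Hey2, an arterial and mural target, had 23 and 16 UMIs, 28.0 and 69.1 CPM.

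MuSC-like cells, the class that lost Yy1, numbered 117 in Ctrl and 30 in dKO. The targets parted there. Hes1 was at 74.9 CPM (64.1–86.9) in Ctrl and 14.5 CPM (6.65–27.6) in dKO, a ratio of 0.194 (0.0873–0.377), from 173 UMIs in 52 cells and 9 UMIs in 4 cells. A single dKO cell held 6 of the 9, and without the richest cell of each library the log2 ratio was -3.75 in place of -2.36. Heyl was at 62.3 and 14.5 CPM, a ratio of 0.233 (0.105–0.455), from 144 UMIs in 49 cells and 9 UMIs in 4 cells. Hey1 went the other way, at 17.7 CPM (12.7–24.1) and 35.5 CPM (22.3–53.8), a ratio of 2.0 (1.14–3.44), from 41 UMIs in 33 cells and 22 UMIs in 10 cells. The intervals of Hes1 and of Heyl in the 2 libraries were apart and those of Hey1 overlapped. Without doublet removal, which took 16.4% of Ctrl and 22.5% of dKO MuSC-like cells, Hey1 was at a log2 ratio of 0.33 and within the fold, and Hes1 and Heyl stayed past it.

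The receptors of MuSC-like cells were closer to each other. Notch1 had a ratio of 0.626 (0.393–0.961), Notch2 of 0.509 (0.223–1.03) with 9 UMIs in dKO, and Notch3 of 0.764 (0.485–1.16). Without doublet removal Notch1 (0.719, 0.511–0.992) and Notch2 (0.816, 0.497–1.29) were within the fold, whereas the ligand Dll1 was past it (0.556, 0.336–0.881). The ligands Dll1 (0.843, 0.498–1.36) and Jag1 (0.974, 0.470–1.87) were within the fold. In all, 5 of the 8 genes with enough UMIs were past the fold, 4 lower and 1 higher, and 26.4% of all 6279 genes were past it in this class of few cells. The median log2 ratio was -0.53 for the 8 genes and -0.02 for all.

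A progenitor state (70 Ctrl and 18 dKO cells) and a differentiating state (47 and 12 cells) made up the MuSC-like cells, in near-equal proportions of cells in the libraries. Progenitors held 580019 of the 2310315 UMIs of the class in Ctrl and 121204 of 618862 in dKO. Differentiating cells were far richer in RNA, with a median of 41213 UMIs against 6066.5, so that a level in CPM and a share of UMIs gave different orders. In Ctrl the differentiating state held 51.7% of the Notch1 and 51.5% of the Notch2 UMIs of the class, 41.0% of those of Hes1, 17.4% of those of Notch3 and 15.3% of those of Heyl, from 40.2% of the cells. As CPM pooled over libraries, Notch3 was at 191 CPM (160–226) in progenitors and 11.2 CPM (7.26–16.6) in differentiating cells and Heyl at 187 CPM (156–222) and 9.87 CPM (6.19–15.0). Notch1 was at 124 against 44.5 CPM in Ctrl and at 149 against 14.1 CPM in dKO. For Hes1 the states differed in Ctrl, at 176 against 41.0 CPM, and were close in dKO, at 16.5 against 14.1 CPM with overlapping intervals. Dll1 was the exception, with 22.8 CPM (13.0–37.1) in progenitors and 44.0 CPM (35.7–53.6) in differentiating cells, and overlapping intervals.

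Within progenitors the receptors Notch1 (124 and 149 CPM in Ctrl and dKO) and Notch3 (188 and 206 CPM) had ratios above 1 with intervals that included 1. Notch2, with 32 and 4 UMIs, was at 55.2 and 33.0 CPM (0.598, 0.154–1.69). Hes1 and Heyl were lower in dKO. Hes1 was at 176 CPM in Ctrl and 16.5 CPM in dKO, a ratio of 0.0938 (0.0112–0.348), from 102 UMIs in 24 cells and 2 UMIs in 2 cells. Heyl was at 210 and 74.3 CPM, a ratio of 0.353 (0.158–0.692), from 122 UMIs in 38 cells and 9 UMIs in 4 cells, and Hey1 at 41.4 and 116 CPM, a ratio of 2.79 (1.34–5.62), from 24 and 14 UMIs. The differentiating state had Hes1 at a ratio of 0.343 (0.133–0.744), from 71 and 7 UMIs, and Heyl at 22 UMIs and 0 UMIs. Notch1 was lower in dKO in the differentiating state, at 44.5 and 14.1 CPM from 77 and 7 UMIs, a ratio of 0.316 (0.123–0.683). The lower Notch1 of the class (log2 ratio -0.67) was not found in the progenitor state (0.26), when each cell counted alike (0.0043) or with every cell thinned to 2000 UMIs (0.46). Heyl in the class was at a log2 ratio of -0.76 when each cell counted alike and -0.49 after thinning, in place of -2.10, and after thinning it was within the fold.

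Other values moved with the MuSC-like difference. Markers of MO/MP summed to 522 CPM in Ctrl and 102 CPM in dKO MuSC-like cells, FAP markers to 913 and 467 CPM, mural markers to 665 and 446 CPM and EC markers to 33.8 and 8.08 CPM; their part in the differences was not tested. The stress list was at 7167 and 6863 CPM in the class and at 19732 and 24603 CPM in the progenitor state. Past the fold in the class, lower in dKO like Hes1, were 6 of the 13: Fosb (0.221), Nr4a1 (0.348), Ier3 (0.361), Fos (0.528), Egr1 (0.622) and Zfp36 (0.633), and their part in the Hes1 difference was not tested. Of 47 other pathway genes, 21 had enough UMIs, 2 were past the fold upward and 4 downward. The counts of stress and pathway genes stand beside 26.4% of all 6279 genes past the fold in this class in either direction. Hes6, a Hes family gene known to favour differentiation, was lower in dKO (127 and 71.1 CPM, 0.561, 0.399–0.772), as was Aph1a, a part of the gamma-secretase that cleaves the receptor (52.4 and 29.1 CPM, 0.555, 0.318–0.915). Mib1, a ubiquitin ligase that acts on the ligands, was higher (65.8 and 103 CPM, 1.57, 1.15–2.12). Rbpj was at 122 and 181 CPM, a ratio of 1.48 (1.18–1.85), just inside the fold.

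**Figure D2:**
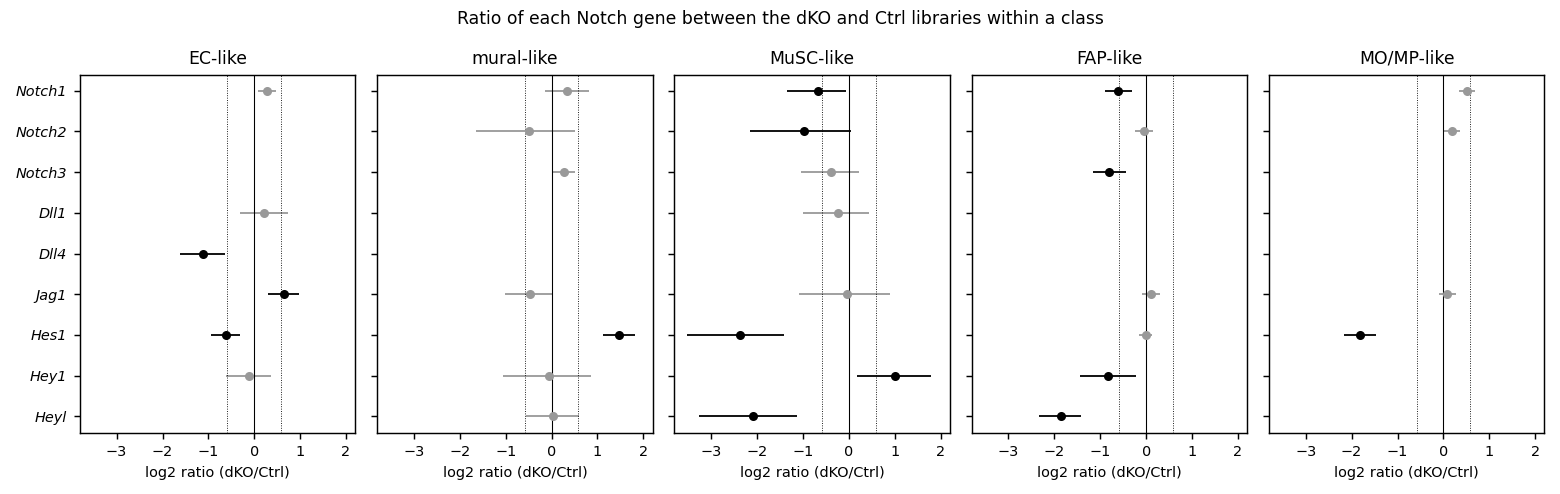
Log2 ratio of dKO to Ctrl for the genes with at least 50 UMIs in each of 5 classes, with the exact 95% interval for counting error. Dotted lines mark a 1.5-fold difference and black points are past it; Hes1 lies at 1.47 in mural-like cells and at -2.36 in MuSC-like and -1.81 in MO/MP-like cells.

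**Figure D3:**
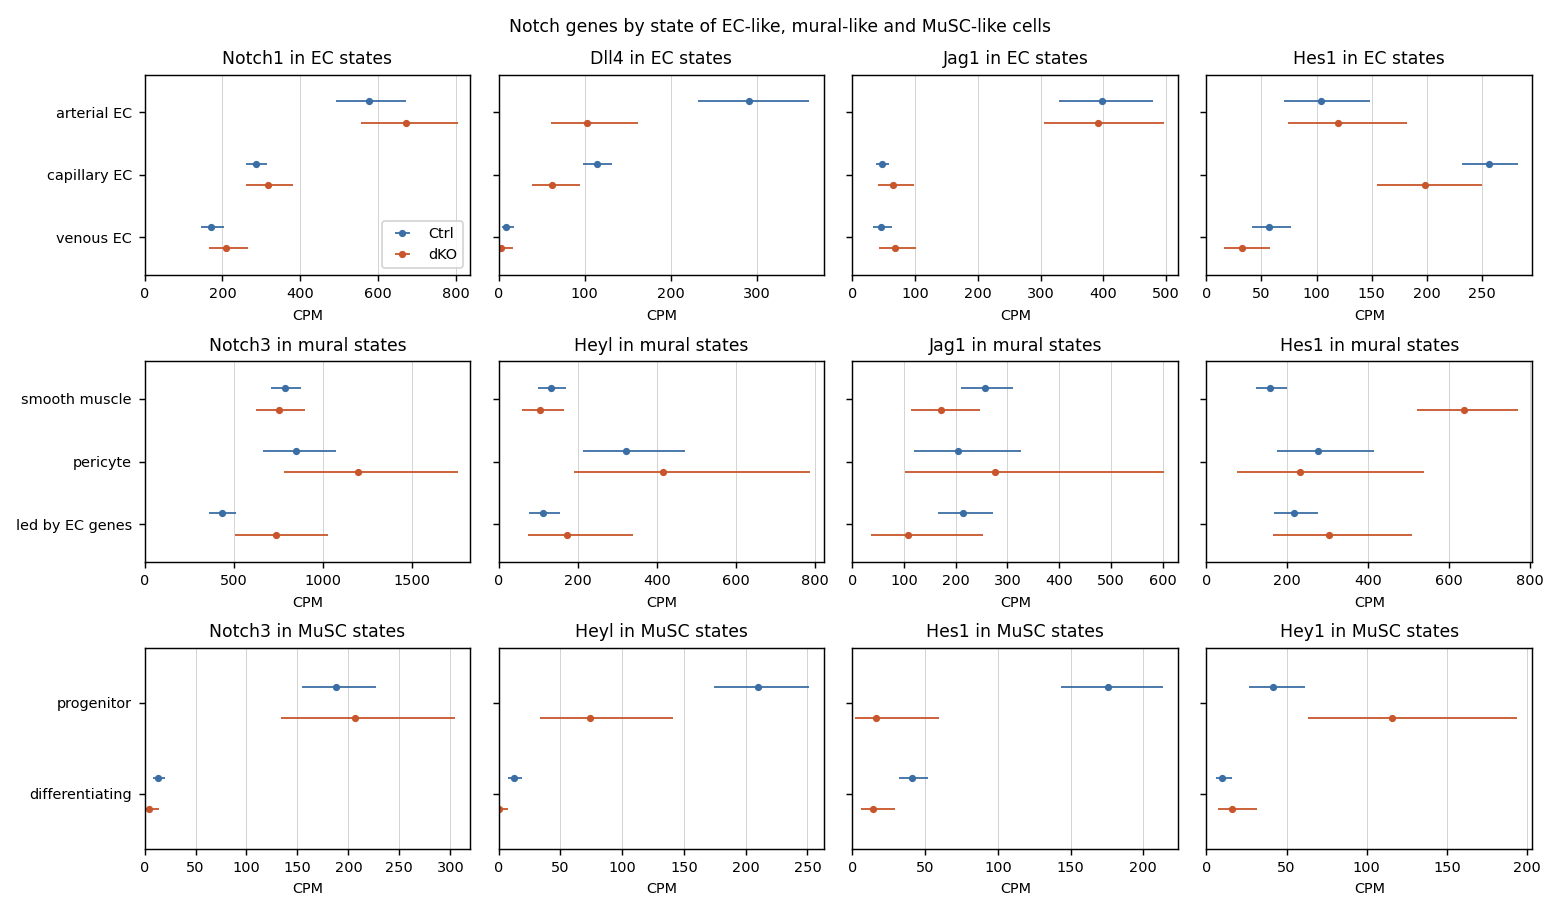
Levels in CPM by state of EC-like, mural-like and MuSC-like cells in the Ctrl and dKO libraries, with exact 95% Poisson intervals on linear axes. Dll4 is lower in dKO in arterial and capillary cells, Jag1 is level in arterial cells, and Hes1 is higher in dKO in the smooth muscle state and lower in the progenitor state.

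FAP-like cells were the largest class of dKO, with 1150 cells against 1096 in Ctrl, and offered the most UMIs. Heyl stood apart there. It had 194 UMIs in 110 Ctrl cells, 13.1 CPM (11.3–15.0), and 55 UMIs in 39 dKO cells, 3.59 CPM (2.70–4.67), a ratio of 0.274 (0.20–0.372). Among FAP-like cells 10.0% in Ctrl and 3.39% in dKO had a UMI of Heyl at medians of 11762 and 11872.5 UMIs, while 0.282% and 0.0885% of MO/MP-like cells did at 7764 and 6817 UMIs. After every cell was thinned to 2000 UMIs (63 shallower cells of Ctrl and 54 of dKO were dropped), the shares of FAP-like cells were 2.42% (1.57–3.55) and 0.730% (0.316–1.43), by exact binomial intervals. Hes1, the target with the most UMIs, was level at 53.6 CPM (49.9–57.4) and 53.3 CPM (49.7–57.1), a ratio of 0.995 (0.901–1.10). The 2 targets thus differed in their ratios within the same class.

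The receptors Notch1 and Notch3 and the target Hey1 were also lower in dKO FAP-like cells. Notch3 was at 11.9 and 6.85 CPM, a ratio of 0.574 (0.447–0.735), Notch1 at 16.2 and 10.6 CPM, a ratio of 0.657 (0.535–0.805), and Hey1 at 4.38 and 2.48 CPM, a ratio of 0.566 (0.369–0.857). Notch2 (31.4 and 30.3 CPM, 0.966, 0.848–1.10), the receptor with the most UMIs in the class, and Jag1 (27.0 and 29.0 CPM, 1.07, 0.936–1.23) were level. In all, 4 of the 7 genes with enough UMIs were past the fold, all 4 lower in dKO, where 7.34% of 11302 genes were past it in either direction and 4.3% with the lower level in dKO. The median log2 ratio of the 7 was -0.61, beside -0.06 over all genes. Heyl alone stayed past the fold when each cell counted alike. Hey1 was at a log2 ratio of 0.65 after thinning, and Notch3 was within the fold without doublet removal (0.683, 0.539–0.863).

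EC markers in FAP-like cells summed to 70.0 CPM in Ctrl and 31.9 CPM in dKO, with 2 of 16 genes higher in dKO, and mural markers to 487 and 410 CPM, with 5 of 16 higher. When only the 849 Ctrl and 1007 dKO FAP-like cells with no UMI of Pecam1, Cdh5, Rgs5, Acta2 or Myh11 were kept, Heyl was lower in dKO by nearly as much (log2 ratio -1.59 in place of -1.87). Notch3 was then at -0.45 in place of -0.80, Notch1 at -0.43 in place of -0.61 and Hey1 at -0.11 in place of -0.82, so that Heyl alone of the 7 stayed past the fold.

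FAP-like cells split into 8 sub-clusters, named here by their leading genes. Heyl was lower in dKO in each of the 4 sub-clusters with more than 10 UMIs of it: the Ifit3 group (19.6 and 5.94 CPM, 0.303, 0.186–0.477), the Rgcc and Plk2 group (11.2 and 1.66 CPM, 0.149, 0.0505–0.365), the Zfp36 and Fos group (14.3 and 6.87 CPM, 0.479, 0.255–0.861) and, with an interval that included 1, the Mcm3 and Cxcl5 group (4.99 and 2.06 CPM, 0.413, 0.125–1.22). The Dmkn group, in which Dpp4 is also a leading gene, was the Notch2 pole of the FAP-like cells. It had 78.9 CPM of Notch2 in Ctrl and 78.7 CPM in dKO, but 1 UMI and 0 UMIs of Heyl, 1 and 0 of Notch3, and 4 and 5 of Notch1. In the Zfp36 and Fos group, where the stress list was highest at 53356 and 55819 CPM, Hes1 was at 77.7 and 127 CPM (1.64, 1.37–1.95), while in the Rgcc and Plk2 group it was at 24.7 and 10.3 CPM (0.416, 0.270–0.633). The level Hes1 of the whole class was therefore made of sub-clusters with ratios on both sides of 1.

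The pathway list had 36 of 47 genes with enough UMIs in FAP-like cells, of which 3 were past the fold, all lower in dKO, and a median log2 ratio of -0.13. Of all 11302 genes, 7.34% were past the fold in either direction and 4.3% with the lower level in dKO. Dlk1, a non-canonical ligand known to restrain adipogenesis, was at 46.8 and 20.5 CPM (0.438, 0.382–0.501) and the ubiquitin ligase gene Dtx4 at 23.0 and 14.5 CPM (0.630, 0.530–0.748). Lfng, which adds sugars to the receptor, was the other. The nuclear partner gene Rbpj had 136 CPM in Ctrl and 143 CPM in dKO.

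In MO/MP-like cells (1419 Ctrl and 1130 dKO cells) Hes1 was lower in dKO, and the receptors Notch1 and Notch2 were within the fold. Notch1 was at 44.6 CPM (41.0–48.4) and 63.5 CPM (58.2–69.0), a ratio of 1.42 (1.26–1.60), Notch2 at 50.9 and 58.1 CPM, a ratio of 1.14 (1.01–1.28), and Jag1 at 45.4 and 48.0 CPM, a ratio of 1.06 (0.931–1.2). The sign of the Notch2 log2 ratio turned when each cell counted alike (-0.062) and after thinning (-0.027), and Notch3 had 8 and 3 UMIs. Hes1 was at 35.4 CPM (32.3–38.8) from 463 UMIs in Ctrl and 10.1 CPM (8.10–12.5) from 87 UMIs in dKO, a ratio of 0.285 (0.224–0.360). It came from few cells, 111 in Ctrl and 38 in dKO, with up to 33 and 14 UMIs in a cell. Hes1 was the 1 of 4 genes past the fold, where 9.23% of 9920 genes were past it in either direction and 4.31% with the lower level in dKO.

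The Hes1 UMIs of Ctrl MO/MP-like cells were gathered in 1 of 6 sub-clusters, led by Calhm6 and the interferon-induced genes Ifit3, Ifit2 and Cxcl10. This group accounted for 22.3% and 21.3% of MO/MP-like cells in Ctrl and dKO and held 80.8% of the Hes1 UMIs in Ctrl and 33.3% in dKO. Its level was 120 CPM in Ctrl, from 374 UMIs in 66 of 317 cells, and 14.9 CPM in dKO, from 29 UMIs in 12 of 241 cells, a ratio of 0.125 (0.0824–0.182). In the Lyve1 and Cd163 group, Hes1 was at 31.9 and 7.18 CPM (0.225, 0.0841–0.518). The monocyte group led by Vcan and Hp went the other way, with 7.80 and 18.9 CPM (2.42, 1.15–5.36) from 12 and 22 UMIs. The Calhm6 and Ifit3 group was then left out because it held most Hes1 UMIs, a choice made from the same counts. Without this group the log2 ratio of Hes1 over MO/MP-like cells was -0.040 in place of -1.81, and Notch1 was past the fold, higher in dKO (47.2 and 71.7 CPM, 1.52, 1.34–1.73).

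Notch1 had ratios above 1 in more of the sub-clusters. It was at 56.0 CPM in Ctrl and 105 CPM in dKO in the Lyve1 and Cd163 group (1.87, 1.34–2.62), at 51.0 and 77.3 CPM in the Arl5c and Mmd group (1.51, 1.21–1.90) and at 30.03 and 43.95 CPM in the Gask1b and Rnf128 group (1.46, 1.05–2.04), and level in the Calhm6 and Ifit3 group (36.5 and 35.0 CPM). Jag1 was uneven in another way, with 77.0 and 78.3 CPM in the Arl5c and Mmd group and 5.12 and 5.66 CPM in the Calhm6 and Ifit3 group, level between libraries in both. The group with the least Jag1 was thus the group with the most Hes1 in Ctrl.

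All 13 stress genes were higher in dKO MO/MP-like cells, with sums of 8401 and 11097 CPM, while FAP markers summed to 530 and 384 CPM and EC markers to 336 and 266 CPM; their part in the Hes1 difference was not tested. Of the other pathway genes, 35 of 47 had enough UMIs, and their median log2 ratio was 0.00. Past the fold were 3 of the 35, where 9.23% of all 9920 genes were. Deltex genes, which regulate the receptor through ubiquitin, supplied all 3 past the fold: Dtx2 was at 24.2 and 53.9 CPM (2.22, 1.92–2.57), Dtx3l at 39.3 and 65.0 CPM (1.65, 1.46–1.87) and Dtx3 at 10.5 and 6.97 CPM (0.665, 0.483–0.908). Rbpj was within the fold at 236 and 263 CPM.

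**Figure D4:**
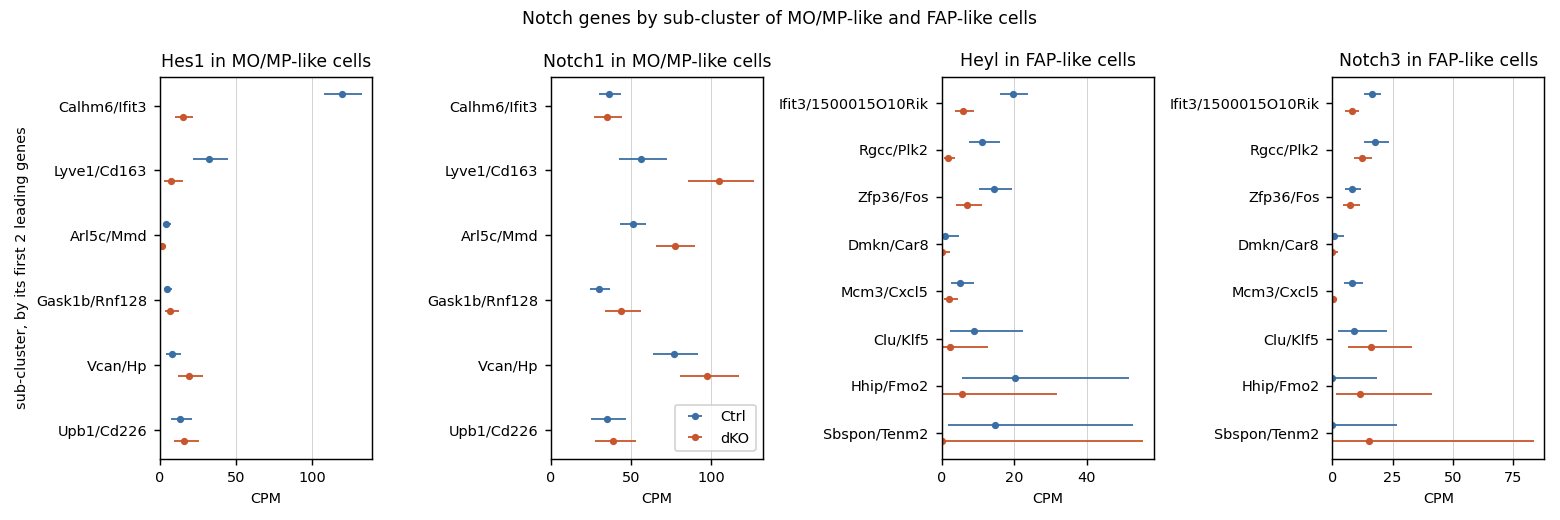
Hes1 and Notch1 by sub-cluster of MO/MP-like cells and Heyl and Notch3 by sub-cluster of FAP-like cells, in CPM with exact 95% Poisson intervals on linear axes and each sub-cluster labelled by its first 2 leading genes. Hes1 of Ctrl stands out in the sub-cluster led by Calhm6 and Ifit3 (120 CPM, against 14.9 CPM in dKO), and Heyl is lower in dKO in the larger FAP-like sub-clusters.

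The remaining classes were small. In tenocyte-like cells (147 Ctrl and 90 dKO cells), 2 of 4 genes were past the fold, both lower in dKO, beside 11% of all genes in either direction and 6.54% with the lower level in dKO. Heyl was at 29.8 CPM from 47 UMIs and 9.03 CPM from 8 UMIs (0.303, 0.124–0.648), and Hes1 at 116 and 57.5 CPM (0.497, 0.357–0.681). EC markers summed to 130 and 24.8 CPM in tenocyte-like cells, and their part was not tested. In T cell-like cells Notch1, which T cells use in their development, had 24 and 48 UMIs, 58.8 and 98.4 CPM (1.67, 1.00–2.86), as the 1 gene with enough UMIs, beside 12% of all genes past the fold and 7.93% with the higher level in dKO. Hes1 in T cell-like cells, below that limit, had 31 UMIs in 7 Ctrl cells and 4 UMIs in 4 dKO cells. In cycling FAP-like cells 1 of 5 genes, Jag1 (21.9 and 34.0 CPM, 1.55, 0.937–2.62), was past the fold, beside 16.1% of all genes and 9.12% with the higher level in dKO. Its log2 ratio was -0.061 with each cell alike and -2 after thinning, and it was within the fold without doublet removal (1.35, 0.875–2.10). No gene with enough UMIs was past it in dendritic cell-like, neutrophil-like or cycling MO/MP-like cells, where 13.5%, 30.8% and 21.3% of all genes were, and no member had enough UMIs in B cell-like or lymphatic EC-like cells. Jag1 in cycling MO/MP-like cells had 13 UMIs in Ctrl and 33 in dKO, of which 1 cell held 21.

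Over all cells of the libraries some of the Notch genes were lower in dKO and the others within the fold. Within it were Notch1 (log2 ratio -0.31), Notch2 (0.00), Jag1 (-0.03) and Hes1 (-0.48). In all, 5 of the 9 genes were past the fold, all lower, where 12.1% of 13570 genes were past it in either direction and 8.3% with the lower level in dKO, and the median log2 ratio was -0.85 beside -0.05 over all genes. Dll4 had the lowest value, -2.15 (-2.59 to -1.74), from 328 UMIs in Ctrl and 55 in dKO, followed by Heyl (-1.76), Dll1 (-1.04), Notch3 (-0.93) and Hey1 (-0.85). As the libraries differ in their makeup, fewer cells of a class and less RNA per cell cannot be told apart in such sums.

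The makeup was therefore held fixed, by weighting the level of each class in dKO with the share of UMIs that the class had in Ctrl. Notch3 was then at -0.01, Hey1 at -0.03 and Dll1 at 0.03 on the log2 scale, close to no difference. Dll4 stayed lower, at -1.10, and so did Heyl, at -1.16, and Hes1, at -0.33. Notch1 changed sides, from -0.31 to 0.22, and Jag1 went from -0.03 to 0.20, while Notch2, which is spread over the classes, was at 0.00 and 0.04. The genes bound to EC-like, mural-like and MuSC-like cells were thus those whose whole-library values moved the most.

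**Figure D5:**
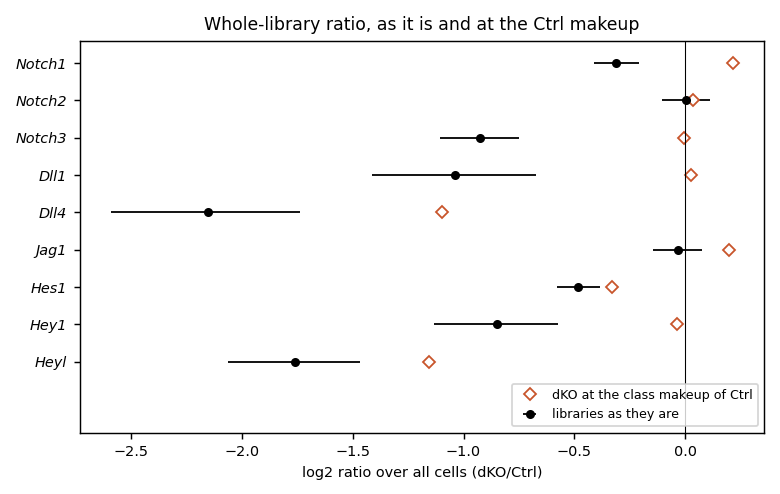
Log2 ratio of dKO to Ctrl over all cells of the libraries for the 9 genes, as they are (black points, exact 95% interval for counting error) and with the dKO classes weighted by the Ctrl makeup (open diamonds, no interval). Notch3, Dll1 and Hey1 move to near 0, and Dll4 and Heyl stay at -1.10 and -1.16.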

How the data were processed

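The deposited files held UMI counts per gene and cell for 2 libraries, Ctrl and dKO, as unnormalised whole numbers. According to the labels the authors aligned reads to mm10 and counted UMIs with Cell Ranger 7.0.0, whereas the headers of the deposited matrices name software version 3.0.2. The files held 4527 Ctrl and 3483 dKO cells with 45556596 and 33815155 UMIs, and 0 mitochondrial genes. Cells in which under 500 genes were detected were dropped. The 4335 and 3329 remaining are the numbers that the study states after its own doublet removal, so doublets may have been removed before deposit. The 7.5% with the highest Scrublet scores (scanpy 1.11.5) were removed from each library, 325 and 250 cells, since the caller's own threshold marked 4 and 14. This took 31.7% and 37.7% of mural-like and 96.2% and 91.7% of myocyte-like cells of Ctrl and dKO. Libraries were integrated with Seurat 5.3.0 anchors in R 4.3.3 on 2000 variable genes, without the members and the pathway list, with 40 dimensions and a resolution of 0.8. Sub-clusters used 1000 variable genes and a resolution of 0.4.

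A cluster took the name of the marker list with the largest share of its detected markers enriched, at least 2-fold over the median of the other clusters and in at least 10% of cells, with at least 3 such markers. That rule was set after the clusters were seen. Of 184 markers, 4 were absent from the matrices. The members and all lists were chosen with earlier results of these data known. UMIs were summed per class and library. Levels carry exact Poisson intervals and ratios exact conditional binomial intervals at 95% (scipy 1.17.1), which cover counting error only. The calculation was tested on simulated data. With 1 library in each group no p-value was computed. A count of 0 was given a floor of 3 UMIs.

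All 9 members were described, with pathway genes past the fold that had at least 100 UMIs and an interval leaving out 1. The remaining pathway genes named were chosen after their values were seen. The nearest genes were ranked by log2(CPM + 10) among genes with at least 200 UMIs in each library. Positions came from the GENCODE annotation of GRCm38, the assembly of mm10. Some results are not reported here.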

Additional observations from a re-analysis of the deposited data

Results flagged for a closer look

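Hes1, Notch1 and Hey1 lay past the fold in opposite directions in different classes, and whether those differences between classes exceed chance was not tested, since each group is 1 library. Hes1 had log2 ratios of dKO to Ctrl of 1.47 in mural-like cells, and of -0.63 in EC-like, -1.01 in tenocyte-like, -1.81 in MO/MP-like and -2.36 in MuSC-like cells. In EC-like cells Hes1 was no longer past the fold with each cell alike or after thinning. Notch1 was at 0.74 in T cell-like cells, at -0.61 in FAP-like and at -0.67 in MuSC-like cells. Notch1 in FAP-like cells was within the fold at -0.57 with each cell alike and at -0.43 in cells with no EC or mural UMI. Without doublet removal Notch1 in MuSC-like cells was at -0.48 and within the fold. Its sign in MuSC-like cells turned with each cell alike, after thinning and in the progenitor state. Hey1 was at 1.00 in MuSC-like and -0.82 in FAP-like cells. It was at 0.33 in MuSC-like cells without doublet removal and at -0.11 in FAP-like cells with no EC or mural UMI, both within the fold.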

How the results depend on the processing

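No paired analysis was possible because each group is 1 library, and for the same reason no library could be left out. Over 55 log2 ratios and 579 alternative values, 527 kept their sign. With resolutions of 0.4 and 1.2, all variable genes or scaling by the median ratio, each ratio stayed within its interval and each count within 1.5 times. Counting each cell alike gave log2 ratios of 0.0043 for Notch1 and -0.76 for Heyl in MuSC-like cells, -0.062 for Notch2 in MO/MP-like, 0.43 for Hey1 in EC-like and -0.061 for Jag1 in cycling FAP-like cells. Thinning to 2000 UMIs gave 0.46 for Notch1 and -0.49 for Heyl in MuSC-like cells, 0.65 for Hey1 in FAP-like, -0.027 for Notch2 and -1.39 for Hes1 in MO/MP-like, -0.040 for Notch1 in EC-like, -0.73 for Heyl in mural-like and -2 for Jag1 in cycling FAP-like cells. With no doublet removal Notch1 in EC-like cells was at 0.076, and without the cell richest in the gene Hes1 in MuSC-like cells was at -3.75. At the Ctrl makeup, Dll1 over all cells was at 0.026. Of alternatives chosen after seeing the data, Notch1 in MuSC-like cells was at 0.26 in the progenitor state, Notch3 at -1.73 in the differentiating state, Notch3 in mural-like cells at 0.0090 without the sub-cluster led by EC genes, and Hes1 in MO/MP-like cells at -0.040 without the Calhm6 and Ifit3 group.

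Counts of members past the fold moved as well. In EC-like cells 3 became 1 with each cell alike and 1 with thinning, and in FAP-like cells 4 became 1 with each cell alike and 1 without cells that held EC or mural UMIs. In mural-like cells 1 became 2 with no doublet removal, 3 with each cell alike, 3 without the richest cell, 3 without the EC-gene sub-cluster and 5 with thinning. In MuSC-like cells 5 became 3 with no doublet removal, 8 without the richest cell, 2 with thinning and 2 in each state alone. Apart from the smaller number of cells or UMIs in thinned or reduced sets, the cause was not tested. The genes past the fold with at least 50 UMIs, at least 200 UMIs, and at least 1 UMI in each library numbered 1146, 260 and 3932 in EC-like, 842, 120 and 4468 in mural-like, 1660, 374 and 4651 in MuSC-like, 830, 386 and 2852 in FAP-like and 916, 414 and 3158 in MO/MP-like cells. Among named classes in dKO, depth was lowest in lymphatic EC-like and neutrophil-like cells, where the floor of 3 UMIs is 46.9 and 32.4 CPM, followed by mural-like cells with 13.0 CPM.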
